A study of Mus musculus with 2 samples.

Results

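Among the Sox1-GFP+ cells sorted from adult mouse brain, 912 of 7988 kept cells (11.4%, exact 95% binomial interval 10.7 to 12.1) held more genes of a list headed by Chst2 and Hapln1 than of a list headed by Agt and Slc6a11. They are called Chst2 Hapln1 cells here, after the list and not because each cell held both genes. They were chosen on their own molecule counts: a cell had to hold at least 2 of the 6 genes Chst2, Hapln1, Mgll, Slco1c1, Grm3 and Scara3, more of these than of the 6 genes Agt, Slc6a11, Slc6a9, Igsf1, Itih3 and Etnppl, and fewer than 3 of the Bergmann glia genes Gdf10, Gria1, Gria4, Dao, Hopx and Frrs1l. Levels of these 18 genes were thus used for the choice and are given as description only. The cells are compared with the other astroglial cells of the same library and, more briefly, with all 7076 other kept brain cells.

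The study made single-cell transcriptomes of Sox1-GFP+ brain and tail cells with the BD Rhapsody whole-transcriptome assay, which counts mRNA molecules by molecular identifiers. The mice carried a Sox1-GFP reporter knocked into the Sox1 gene and had no other allele or agent named in the labels. The brain sample was whole brain of adult animals, minced, dissociated with trypsin and sorted for GFP, and the tail sample was from newborn animals. Each tissue was 1 library, and nothing in the labels says how many animals gave the cells or which brain region a cell came from. There were therefore no replicates and no test between groups of cells, and every interval below covers counting error only.

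Astrocytes supply neurons with metabolites, take up glutamate and potassium, and line synapses and blood vessels. They are not alike throughout the brain. Many of them keep into adult life some of the patterning transcription factors of the part of the neural tube from which they arose, so that astrocytes of the telencephalon (cerebral cortex, hippocampus, striatum and olfactory bulb) can be told from those of the thalamus, midbrain, hindbrain and spinal cord by gene expression. Bergmann glia are the radial astrocytes of the cerebellar cortex.

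The brain file held 12111 cell barcodes, of which 7988 were kept because their gene number lay above 200 and below 4000 and less than 40% of their molecules were mitochondrial. The Chst2 Hapln1 cells held 943804 molecules, with a median of 941.5 molecules per cell (range 265 to 4460), 550.5 genes and 15.1% mitochondrial molecules. The 3944 cells in which at least 2 genes of the Agt list outnumbered those of the Chst2 list, called Agt Slc6a11 cells, held 2898648 molecules, with a median of 674 molecules and 17.1% mitochondrial molecules. The Chst2 Hapln1 cells were thus the deeper of these groups. Both groups were chosen by at least 2 detected genes of a list, and the cause of the difference in depth was not tested. Of 29 cell indices found in both the brain and the tail file, 3 belonged to Chst2 Hapln1 cells.

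Astroglia markers were found in nearly every cell. Of the 912 cells, 907 (99.5%) held 3 or more of 10 astroglia markers, which made up 51932 CPM (molecules of a gene or gene set per 1000000 molecules of the group) against 37859 in Agt Slc6a11 cells. Slc1a2, the main glutamate transporter of astrocytes, had 13279 CPM and was found in 99.0% of cells. No cell held 3 or more markers of microglia, endothelium, choroid plexus or mature neurons, and 6 of the 8 microglia markers (Cx3cr1, Csf1r, C1qa, C1qb, C1qc and Tyrobp) were at 0 molecules. Neuroblast markers stood out in 16 cells (1.75%), which had a median of 1963 molecules, and 13 of them also held 3 or more astroglia markers. The 10 neuroblast markers together had 390 CPM, against 406 in Agt Slc6a11 cells. Markers of oligodendrocyte progenitors, of cycling cells and of ependyma reached 3 or more in 4, 5 and 1 cells.

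Another 5 cells (0.548%) carried oligodendrocyte transcripts, and they touch several values below. They held 3 or more of 6 oligodendrocyte markers at a median of 4237 molecules per cell, and through them the marker list reached 3089 CPM against 311 in Agt Slc6a11 cells. They held 190 of the 191 molecules of Mal and 240 of the 244 of Cldn11 in all Chst2 Hapln1 cells, both genes of myelin membrane proteins, and no molecule of Hapln1, Slco1c1 or Scara3. Results are therefore given with these 5 cells, as the rule has it, and without them where they change.

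Sox1, the gene that carries the reporter, was sparse in the cells sorted on it. Its transcript had 35 molecules in 34 of the 912 Chst2 Hapln1 cells, or 37.1 CPM, against 86.2 in Agt Slc6a11 cells, 202 in the 277 Bergmann glia-like cells (defined by at least 3 of the Bergmann glia genes) and 214 in the 1810 neuroblast-like cells (cells of no astroglial group with at least 3 of 10 neuroblast markers). The ratio to Agt Slc6a11 cells was 0.43 (exact 95% interval 0.293 to 0.614). After every cell was thinned at random to 400 molecules, leaving out shallower cells, 1.35% of 887 Chst2 Hapln1 cells and 3.27% of 3612 Agt Slc6a11 cells held a Sox1 molecule. None of 40 thinned microglia-like cells, defined likewise by 3 of 8 markers, did, for which a floor of 3 counts allows a share of up to 7.50%. Sox2, the related SoxB gene, had 550 CPM against 384, a ratio of 1.43 (1.29 to 1.59).

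The 6 genes that chose the cells have varied roles. Chst2 (chr9:95399292-95406722 on GRCm38, minus strand) encodes a carbohydrate sulfotransferase, and Hapln1 (chr13:89539796-89611652, plus strand) a link protein that ties proteoglycans to hyaluronan in the extracellular matrix. Mgll (chr6:88724412-88828360, plus strand) encodes monoacylglycerol lipase, which breaks down the endocannabinoid 2-arachidonoylglycerol. Slco1c1 (chr6:141524368-141570177, plus strand) encodes a thyroxine transporter, Grm3 (chr5:9485541-9725170, minus strand) a metabotropic glutamate receptor, and Scara3 (chr14:65919394-65953935, minus strand) a scavenger receptor. All are protein-coding genes of the GENCODE annotation.

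Slco1c1 and Chst2 were the most widely detected, in 67.9% and 67.2% of the cells, followed by Mgll (57.1%), Grm3 (51.5%), Scara3 (42.5%) and Hapln1 (42.1%). Few cells showed the whole list: 265 cells held 2 of the 6 genes, 301 held 3, 202 held 4, 110 held 5 and 34 held all 6. On the other side of the rule, 292 cells held none of the Agt list, 433 held 1, 157 held 2, 25 held 3 and 5 held 4. Most of that signal was Slc6a11, a GABA transporter, which had a molecule in 47.8% of Chst2 Hapln1 cells, whereas Agt (angiotensinogen) was found in 5.92%. Of the Bergmann glia genes, 537 cells held none, 336 held 1 and 39 held 2, with Hopx in 30.7% and Gdf10 in 10.2% of cells. That list had 602 CPM, against 377 in Agt Slc6a11 cells and 14030 in Bergmann glia-like cells. Chst2 in thinned cells had a molecule in 36.5% of Chst2 Hapln1 cells, 3.68% of Agt Slc6a11 cells, 0.425% of neuroblast-like cells (median depth 662.5 molecules) and 2.50% of microglia-like cells (median depth 630 molecules). The grid of detected genes shows the chosen cells as a wedge below the diagonal, next to a far larger body of cells on the Agt side.

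**Figure D1:**
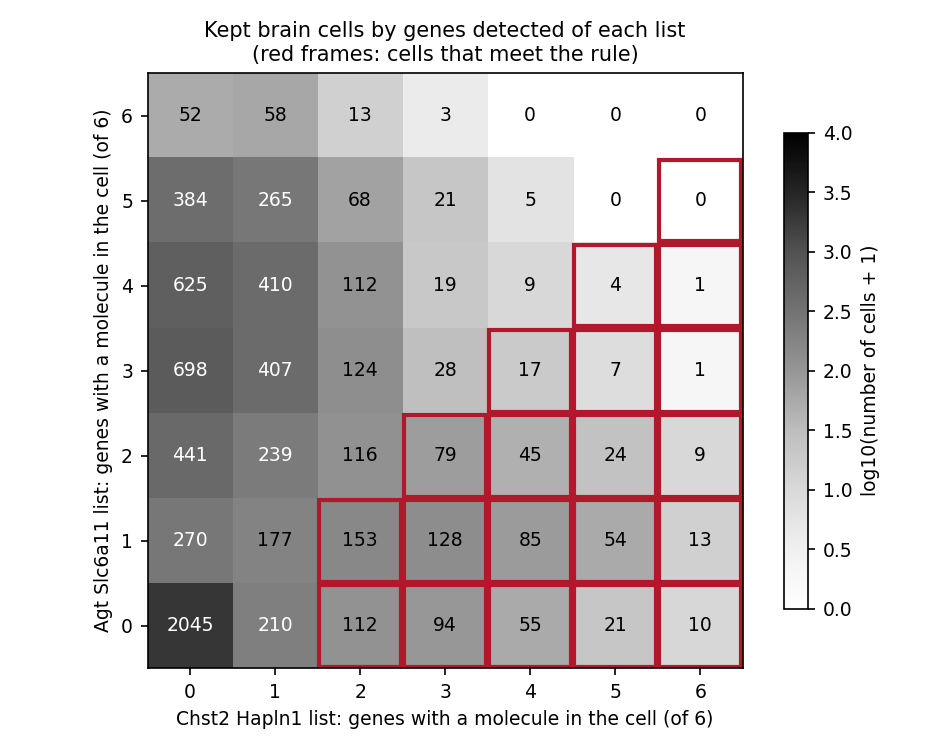
Kept brain cells with fewer than 3 Bergmann glia genes, by the number of Chst2 list genes (horizontal, 0 to 6) and Agt list genes (vertical, 0 to 6) with at least 1 molecule. Each square gives its number of cells, the grey shade is log10 of that number plus 1, and red frames mark the squares that make up the 912 chosen cells.

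Against Agt Slc6a11 cells, the genes furthest apart were Nptx2, Lypd6 and Lhx2 on the higher side and Foxb1, Sfrp5 and Sparc on the lower side, leaving aside genes of myelin that rested on 5 cells. Of 7571 genes with at least 50 molecules over both groups, leaving out the 18 genes of the rule and mitochondrial genes, 281 (3.71%) were at least 2-fold higher in Chst2 Hapln1 cells and 358 (4.73%) at least 2-fold lower, and the median ratio over all of them was 1.05. Without the 5 oligodendrocyte-marked cells the counts were 246 and 364 of 7532. The scatter of levels shows most genes near the diagonal, with separate fringes above and below it.

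Nptx2, a secreted neuronal pentraxin that gathers glutamate receptors, led the list. It had 101 molecules in 92 of 912 Chst2 Hapln1 cells and 6 molecules in 6 of 3944 Agt Slc6a11 cells, which made 107 against 2.07 CPM and a ratio of 51.7 (22.9 to 144). Lypd6, a membrane-anchored modulator of nicotinic receptors and Wnt signalling, had 64.6 against 1.38 CPM (ratio 46.8, 17.4 to 177). Both were found in few cells, so the ratio is large while the share of cells with a molecule is small (10.1% and 6.36%).

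Lhx2, a LIM-homeodomain factor of forebrain patterning (chr2:38339281-38369733, plus strand), had 294 molecules in 233 cells against 45 molecules in 39 cells, or 312 against 15.5 CPM (ratio 20.1, 14.6 to 28.1). Chrdl1, a secreted BMP antagonist made by astrocytes that acts in synapse maturation, had 122 against 5.86 (ratio 20.8, 12.4 to 36.9). Atp1b1, a beta subunit of the sodium pump, was found in 41.7% of Chst2 Hapln1 cells and 2.38% of Agt Slc6a11 cells, at 594 against 41.4 CPM (ratio 14.4, 11.8 to 17.6). Atp1b2, the beta subunit usual in astrocytes, had 11892 against 21985 (ratio 0.54), so these subunit genes differed in opposite directions. Ephb1, an ephrin receptor (ratio 14.4), Fam13c (ratio 13.0) and Emx2, given with the regional genes, were also among the 15 leading genes.

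The other 7 of the 15 leading genes (Mal, Cldn11, Ermn, Mag, Tspan2, Ugt8a and Fa2h, with ratios of 14.2 to 30.7) are genes of oligodendrocytes and myelin and rested on the 5 cells described above. Without those cells all 7 were lower in Chst2 Hapln1 cells than in Agt Slc6a11 cells, for instance Cldn11 at a ratio of 0.349. Cells were removed only from the Chst2 Hapln1 cells, however. Agt Slc6a11 cells kept 3 cells with 3 or more oligodendrocyte markers, so these ratios give no direction between the groups. The places of the 7 genes were taken by Dkk3 (9.62), Fezf2 (12.1), Naaa (9.22), Gnao1 (6.23), Swap70 (8.44), Cox10 (7.24) and St6galnac5 (6.26). Fezf2 is a forebrain transcription factor, Dkk3 is a secreted dickkopf family protein, Naaa degrades N-acylethanolamines, and St6galnac5 is a sialyltransferase. Gnao1, the G protein alpha-o subunit, was the most abundant of these and had 1921 molecules in 721 of 912 cells.

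**Figure D2:**
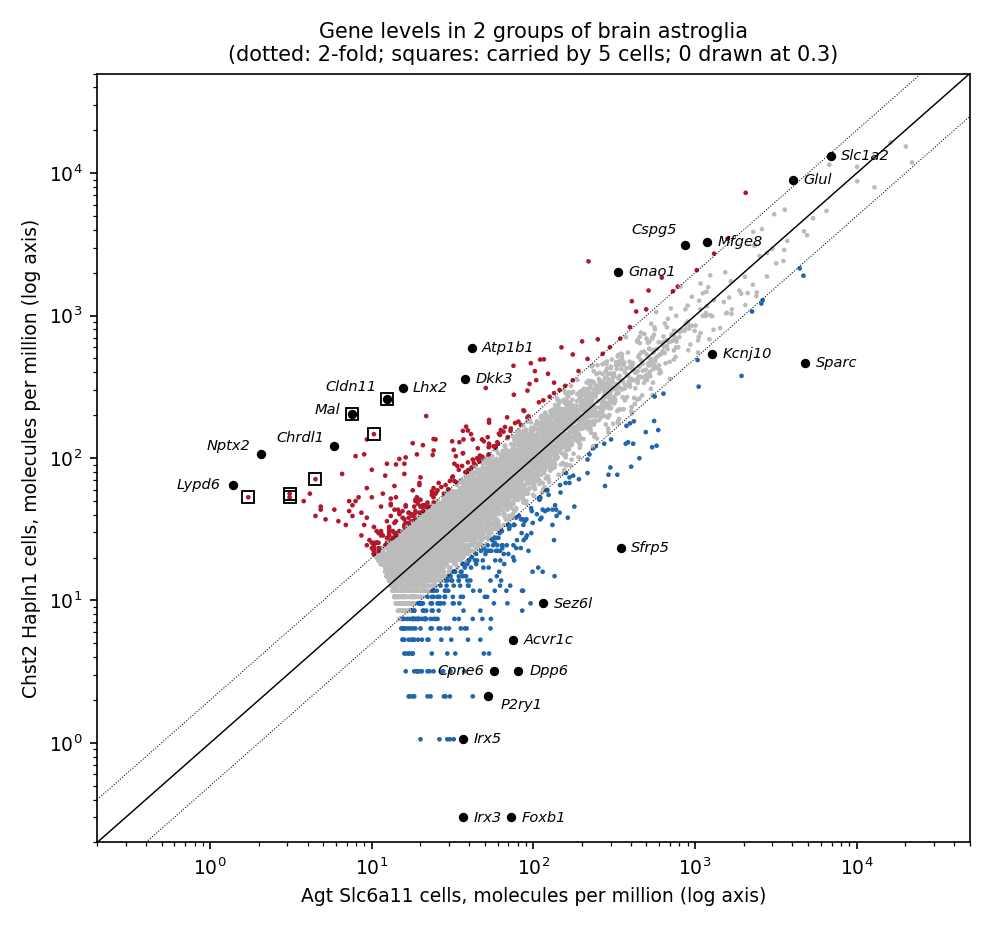
Level of each of 7571 genes in CPM (log axes) in Agt Slc6a11 cells (horizontal) and Chst2 Hapln1 cells (vertical), with genes at least 2-fold higher in red (281) and at least 2-fold lower in blue (358), and black points for genes named beside them. Squares mark the 7 genes of oligodendrocytes and myelin that rested on 5 cells, and genes at 0 are drawn at 0.3.

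Among the genes that were lower, Sparc stood apart by its abundance. Sparc, a secreted matricellular glycoprotein (chr11:55394500-55423183, minus strand), had 464 CPM in Chst2 Hapln1 cells and 4812 in Agt Slc6a11 cells, and was 10.4-fold lower (9.43 to 11.4). In thinned cells it had a molecule in 14.7% and 79.2%. Its level was 3428 in Bergmann glia-like cells, 8416 in microglia-like cells and 36.1 in neuroblast-like cells. Sparcl1, its relative, was high in both astroglial groups and differed less (7943 against 12876 CPM).

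Foxb1 (chr9:69757710-69760940, minus strand), a forkhead factor of the caudal diencephalon, midbrain and hindbrain, had 0 molecules in Chst2 Hapln1 cells and 210 molecules in 195 Agt Slc6a11 cells. Against a floor of 3 counts over the group it was at least 22.8-fold lower. The secreted Wnt antagonist Sfrp5 was 14.9-fold lower (9.76 to 23.8), at 23.3 against 346 CPM. Dpp6, an auxiliary subunit of A-type potassium channels, was 25.1-fold lower (8.47 to 122) and the purinergic receptor gene P2ry1 24.6-fold lower (6.69 to 205), with 3 and 2 molecules left. Sez6l, Cpne6 and Acvr1c were 12-, 18- and 14.1-fold lower. Irx3 and Irx5, also among the 10 lowest, are given with the regional genes.

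Regional transcription factors differed in both directions. Of 8 general telencephalic genes, 7 had enough molecules, and 5 of them were at least 2-fold higher in Chst2 Hapln1 cells while none was 2-fold lower, against the 3.71% and 4.73% of all genes given above. Their median ratio was 3.71, against 1.05 over all genes. Besides Lhx2 these were Emx2 (106 against 8.97 CPM, ratio 11.8, 7.61 to 19.0), Dmrta2 (91.1 against 12.4, ratio 7.34), Nr2e1 (129 against 34.8, ratio 3.71) and Meis2 (171 against 83.5, ratio 2.04, 1.66 to 2.50). Emx2 is a factor of the developing cerebral cortex, Dmrta2 acts in dorsal telencephalic patterning, and Nr2e1 is the Tlx receptor of adult neural stem cells and forebrain. Otx1 was at a ratio of 1.60 and Six3, a factor of the ventral and anterior forebrain, at 0.89.

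The dorsal and ventral telencephalic lists held few molecules in Chst2 Hapln1 cells. Emx2 and Dmrta2, described above, were counted in the general list and not in the dorsal one. None of 6 dorsal genes had 50 molecules over both groups, and all 6 together had 2 molecules in Chst2 Hapln1 cells. Of 9 ventral genes only Dlx1 and Dlx2 had enough molecules, at ratios of 0.55 (0.341 to 0.854) and 0.93 (0.495 to 1.65). Of the 24 Dlx1 molecules, 17 lay in the 16 cells with neuroblast markers. All 23 genes of the telencephalic lists together had 946 CPM in Chst2 Hapln1 cells and 306 in Agt Slc6a11 cells, a ratio of 3.10 (2.82 to 3.40), and without the 5 oligodendrocyte-marked cells 3.15 (2.86 to 3.46).

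The midbrain and hindbrain genes ran the other way. Of 5 with enough molecules, 4 were at least 2-fold lower, beside 4.73% of all genes. These were Irx1, Irx2, Irx3 and Irx5, homeobox genes of the midbrain, hindbrain and spinal cord, while Zic1 was at a ratio of 0.73 (0.447 to 1.15). Irx1 had 2 molecules in Chst2 Hapln1 cells and 122 in Agt Slc6a11 cells, or 2.12 against 42.1 CPM (ratio 0.05, 0.00603 to 0.186). Irx2 and Irx5 had 1 molecule each and Irx3 (chr8:91798525-91802067, minus strand) none, against 106 molecules of Irx3 in 102 Agt Slc6a11 cells, so that Irx3 was at least 11.5-fold lower against the same floor of 3 counts. The 12 genes of this list together had 37.1 against 213 CPM, a ratio of 0.174 (0.120 to 0.245), and 24 of the 35 molecules left were Zic1. Of the diencephalic list only Tcf7l2, which marks thalamic cells but is found more widely, had enough molecules, at 147 against 180 (ratio 0.82, 0.672 to 0.986).

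Shares of cells with a molecule of these factors differed in the same directions at equal depth. After thinning to 400 molecules, 22.2% of 887 Chst2 Hapln1 cells (19.5 to 25.1) and 2.88% of 3612 Agt Slc6a11 cells (2.36 to 3.48) held any of Lhx2, Emx2, Nr2e1 and Dmrta2, against 42.5% and 4.39% before thinning. The share was 3.03% in neuroblast-like cells and 2 of 272 in Bergmann glia-like cells. For any of Irx1, Irx2, Irx3, Irx5, En1, En2 and Pax3 the share was 0 of 887 Chst2 Hapln1 cells, for which a floor of 3 counts allows up to 0.338% of cells with a molecule at this depth, against 6.56% of Agt Slc6a11 cells and 16.9% of Bergmann glia-like cells. Before thinning, 7 of 912 Chst2 Hapln1 cells (0.768%) and 11.2% of Agt Slc6a11 cells held such a molecule. None of 40 microglia-like cells held a gene of either set.

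Most single cells were silent for these factors at this depth. Of the 887 thinned cells, 690 (77.8%) showed none of these 4 telencephalic factors, 174 showed 1, 22 showed 2 and 1 showed 3. Lhx2 was found in 12.5% of thinned cells, Nr2e1 in 4.96%, Emx2 in 4.17% and Dmrta2 in 3.27%. The telencephalic level is a value of the pooled cells, and a cell without such a molecule cannot be called non-telencephalic from these counts.

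Meis2 was not highest in Chst2 Hapln1 cells. Neuroblast-like cells had 1913 CPM of Meis2, against 171. Lhx2 and Emx2 had 64.5 and 15.3 CPM in neuroblast-like cells, below the 312 and 106 of Chst2 Hapln1 cells, and Nr2e1 had 9.72 against 129. Of the 161 Meis2 molecules in Chst2 Hapln1 cells, 17 lay in the 16 cells with neuroblast markers, and the level was 159 CPM without those cells. Lhx2 had 7 of its 294 molecules there and Emx2 1 of 100. The plot of regional genes sets the levels of the cell groups side by side.

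**Figure D3:**
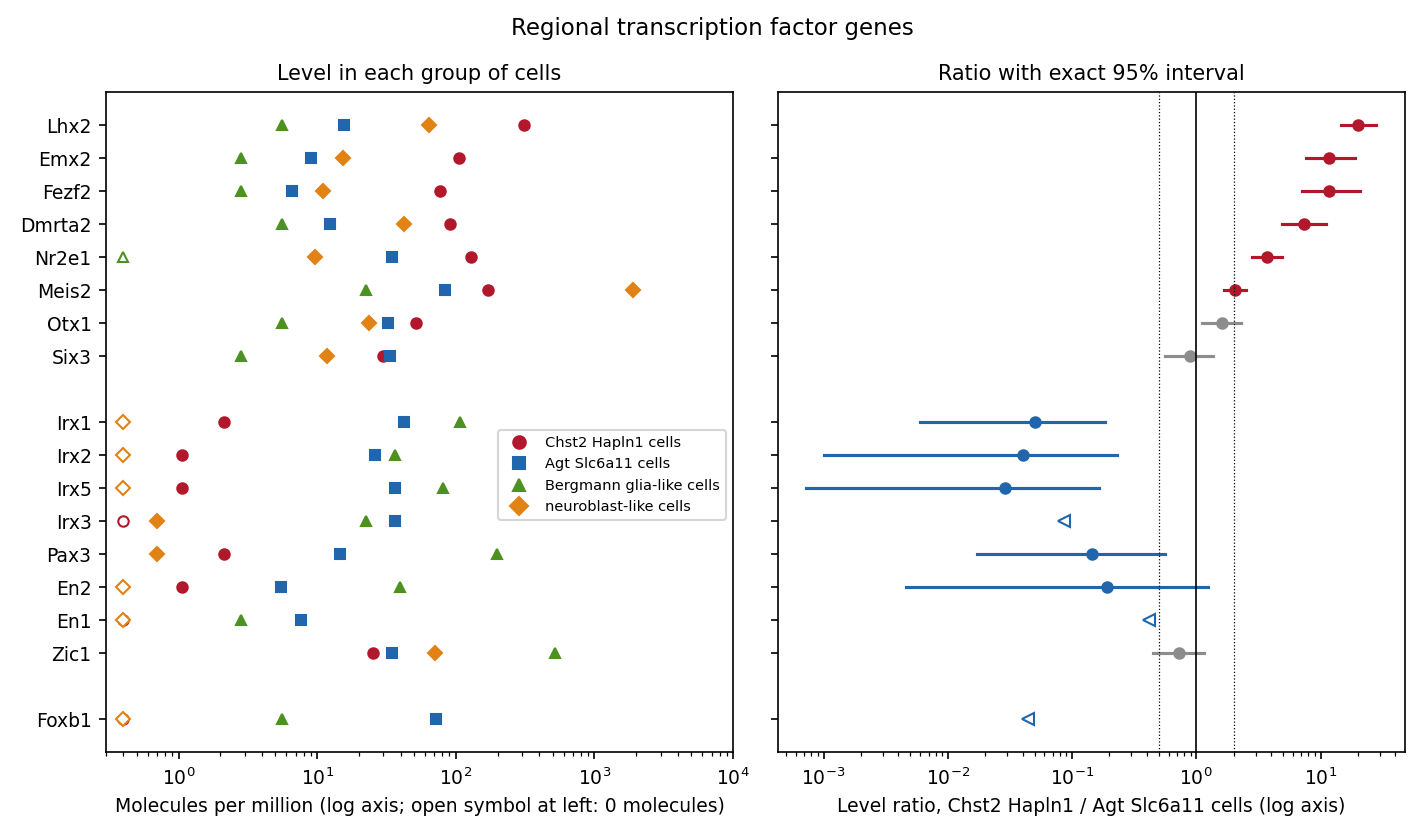
Left, level of telencephalic (upper 8), midbrain and hindbrain (next 8) genes and Foxb1 in CPM (log axis) in Chst2 Hapln1, Agt Slc6a11, Bergmann glia-like and neuroblast-like cells, with open symbols at the left edge for 0 molecules. The upper 8 are not the general list as such. They include Fezf2, a leading gene, and leave out Bcl11b, which had fewer than 50 molecules over both groups. Right, ratio of Chst2 Hapln1 to Agt Slc6a11 cells (log axis) with exact 95% intervals, where open arrowheads give the bound against a floor of 3 counts for genes at 0 and dotted lines mark 2-fold, showing Lhx2 highest at 20.1; Pax3, En1 and En2 had fewer than 50 molecules over both groups.

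Of 25 astrocyte identity genes, all had enough molecules, 2 were at least 2-fold higher and 3 at least 2-fold lower, beside 3.71% and 4.73% of all genes, and the median ratio was 0.90 beside 1.05. Glul, which makes glutamine from glutamate, had 8982 against 4038 CPM (ratio 2.22, 2.16 to 2.29), and Mfge8, a secreted phosphatidylserine-binding protein of phagocytosis, 3298 against 1187 (ratio 2.78, 2.65 to 2.92). The glutamate transporter genes Slc1a2 and Slc1a3 stayed just under 2-fold, at ratios of 1.93 and 1.69, as did Clu (1.67) and Aldoc (1.54). The lower genes were Aqp4, the water channel of astrocyte endfeet (1281 against 2617, ratio 0.49), Slc4a4, a sodium bicarbonate cotransporter (2143 against 4437, ratio 0.48), and Kcnj10, the potassium channel Kir4.1 (539 against 1267, ratio 0.43, 0.387 to 0.467).  The gap junction genes Gja1 and Gjb6 were at ratios of 0.74 and 0.57.

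Of 6 thyroid hormone genes with enough molecules, besides the transporter gene Slco1c1 used in the rule, 1 was at least 2-fold higher and 1 at least 2-fold lower, beside 3.71% and 4.73% of all genes, and the median ratio was 0.98. Dio2, the deiodinase that turns thyroxine into the active hormone, had 352 against 104 CPM (ratio 3.39, 2.89 to 3.97). Dio2 was detected in 26.1% of Chst2 Hapln1 cells and 6.85% of Agt Slc6a11 cells, and in 11.3% and 4.01% after thinning. Hr, a corepressor of thyroid hormone receptors that is itself induced by the hormone, was 3.18-fold lower (2.14 to 4.92). Klf9, another hormone-induced gene, was at a ratio of 1.09 (0.946 to 1.25), and the receptor genes Thra and Thrb at 0.86 and 1.36. Crym, a thyroid hormone binding protein, had 28 molecules in 14 cells against 3 molecules, below the minimum of 50.

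In the matrix list, 16 genes besides Chst2 and Hapln1 had enough molecules, with a median ratio of 1.02. Of these only Cspg5 was at least 2-fold higher and only Sparc at least 2-fold lower, beside 3.71% and 4.73% of all genes. Cspg5, the transmembrane proteoglycan neuroglycan C, had 3143 against 866 CPM (ratio 3.63, 3.44 to 3.83) and was found in 90.2% of the cells. The lecticans Bcan and Ncan and the receptor phosphatase Ptprz1, to which such sugars are attached, were near equal at ratios of 0.98, 1.16 and 1.05. The other sulfotransferase genes with enough molecules, Chst1, Chst10 and Chst11, had ratios of 1.40, 0.66 and 0.94.

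Of 4 endocannabinoid genes besides Mgll with enough molecules none passed 2-fold in either direction, among them the synthesis gene Dagla (ratio 0.91, 0.725 to 1.13) and the hydrolase genes Abhd6 (1.1) and Abhd12 (0.78). The cannabinoid receptor gene Cnr1 had 32 molecules in 29 Chst2 Hapln1 cells against 3 molecules in 3 Agt Slc6a11 cells, or 33.9 against 1.03 CPM, again below the minimum of 50.

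Of 19 G protein-coupled receptor genes other than Grm3 with enough molecules, 5 were at least 2-fold lower and none 2-fold higher, beside 4.73% and 3.71% of all genes, with a median ratio of 0.66. The lower ones were P2ry1, Grm5 (ratio 0.35, 0.193 to 0.582), the alpha-2A adrenergic receptor gene Adra2a (76.3 against 330 CPM, ratio 0.23), the adhesion receptor gene Adgrb1 (ratio 0.34) and the endothelin receptor gene Ednrb (ratio 0.47). S1pr1, the sphingosine-1-phosphate receptor, was at 1.56 and Fzd2, a Wnt receptor, at 1.62. Of 8 ionotropic receptor genes with enough molecules, 1 was at least 2-fold higher and 1 at least 2-fold lower, beside the same shares of all genes. The NMDA receptor subunit gene Grin2c had 689 against 344 CPM (ratio 2.0, 1.81 to 2.21), on the 2-fold line, and Grin3a was 4.27-fold lower (3.04 to 6.17).

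The amino acid and GABA transporter genes other than Slc6a11 and Slc6a9 showed none past 2-fold among 9 with enough molecules, with Slc7a10, a neutral amino acid transporter, at a ratio of 0.57. In the Notch list 4 of 11 genes with enough molecules were at least 2-fold lower and none higher, beside the same shares of all genes. They were the receptor gene Notch3 (ratio 0.36, 0.252 to 0.499), the ligand gene Jag1 (0.46), and the target genes Heyl (0.12, 0.0424 to 0.261) and Hey2 (0.49, 0.215 to 1.01), of which Hey2 passed 2-fold only with the 5 oligodendrocyte-marked cells, being at 0.50 without them. Hes5 and Notch1 were at 1.02 and 1.26. None of 13 lipid and scavenger genes with enough molecules besides Scara3 passed 2-fold.

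**Figure D4:**
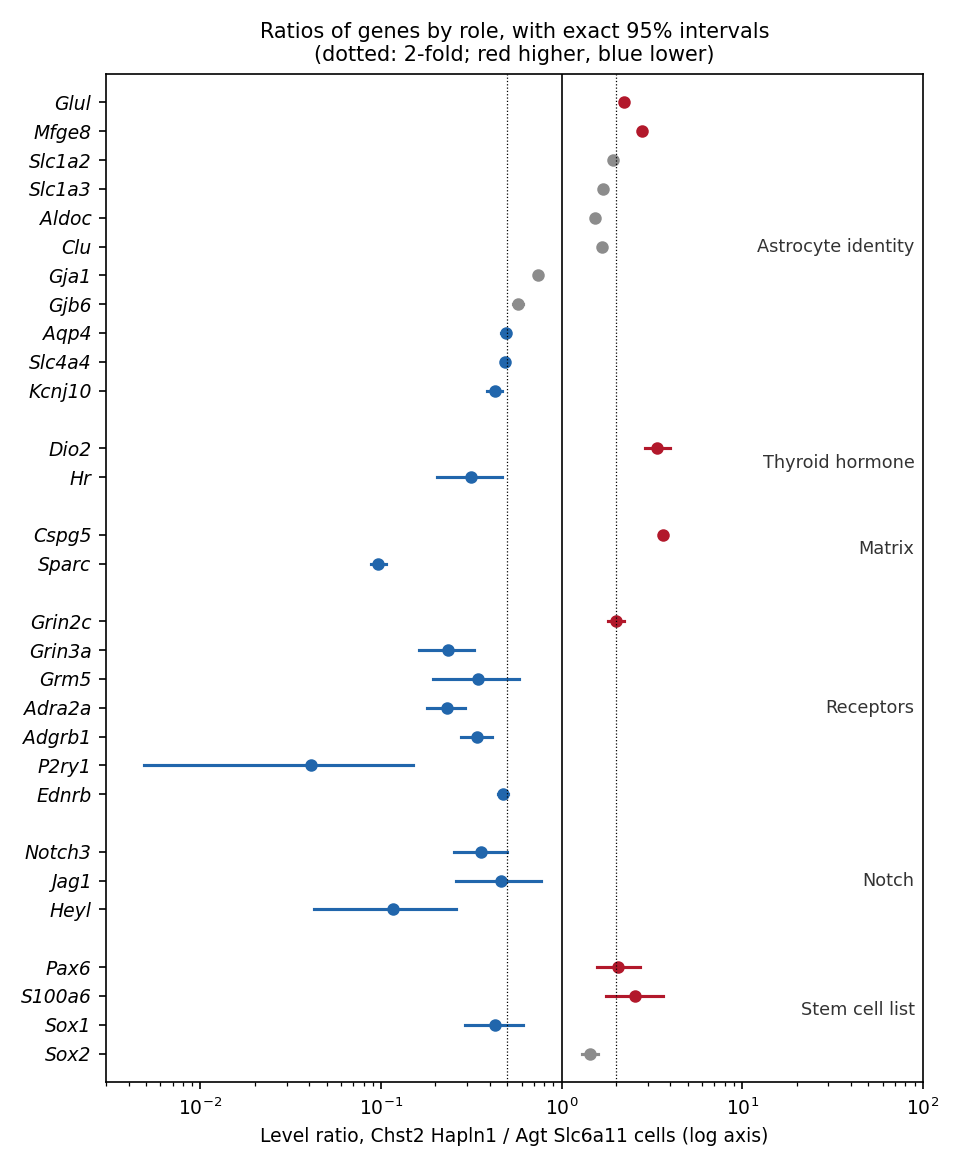
Ratio of levels in Chst2 Hapln1 to Agt Slc6a11 cells (log axis) for genes named in the text, grouped by role, with exact 95% intervals as bars. Red marks at least 2-fold higher, blue at least 2-fold lower and grey neither, with dotted lines at 2-fold, and Sparc (0.10) and P2ry1 (0.04) lie farthest to the left.

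Of 14 neural stem cell genes with enough molecules, Pax6, a transcription factor of neural progenitors (ratio 2.06, 1.56 to 2.70), and S100a6 (2.54) were at least 2-fold higher and Sox1 and Ednrb at least 2-fold lower, beside 3.71% and 4.73% of all genes. Gfap, which is high in stem-like astrocytes of the ventricle wall and in reactive ones, was at 74.2 against 94.2 CPM (ratio 0.79, 0.597 to 1.03), and Nes had 2 molecules.

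Genes that respond to dissociation or activity had near equal summed levels in the astroglial groups. The 14 genes of that list had 890 CPM in Chst2 Hapln1 cells and 884 in Agt Slc6a11 cells, a ratio of 1.01 (0.931 to 1.09). Without the 5 oligodendrocyte-marked cells the level was 827 CPM and the ratio 0.936 (0.863 to 1.02). Of 9 genes with enough molecules, Btg2 alone was past 2-fold (ratio 0.40), on the lower side, where 4.73% of all genes were. Fos had 197 and 276 CPM, whereas neuroblast-like cells had 5094 and microglia-like cells 5854.

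Against all other kept brain cells, 326 of 9793 genes (3.33%) were at least 2-fold higher and 1780 (18.2%) at least 2-fold lower, with a median ratio of 0.84. Without the 5 oligodendrocyte-marked cells these counts were 316 and 1850 of 9780, and with the median ratio as the scaling in place of the total they were 565 and 1308. The 7076 cells compared included the 1810 neuroblast-like cells. Without the 2167 cells, 39 of them Chst2 Hapln1 cells, that held 2 or more markers of neuroblasts, oligodendrocytes or microglia, 189 genes were higher and 558 lower. Against all 7076 other cells, neuroblast-like cells included, the lower genes held all 5 ventral telencephalic genes with enough molecules (Dlx1, Dlx2, Dlx5, Dlx6 and Gsx1). They also held all 7 midbrain and hindbrain genes with enough molecules. The highest genes outside the rule were Chrdl1 (122 against 7.85 CPM, ratio 15.5, 10.9 to 22.6), Lypd6 (16.9), Eogt (7.50), Lmcd1 (8.95), Lhx2 (6.14, 5.19 to 7.26), Swap70 (7.31), Nptx2 (6.38), Oaf (5.47), Smim3 (5.96) and Dkk3 (5.50). Lhx2, Nptx2, Lypd6 and Chrdl1 were thus among the leading genes of both comparisons, which share the Agt Slc6a11 cells. Of the 8 general telencephalic genes 4 were at least 2-fold higher in this comparison (Lhx2, Nr2e1, Dmrta2 and Emx2) and 2 at least 2-fold lower (Bcl11b and Meis2), and the summed ratio of the 8 genes was 1.08. All 23 genes of the telencephalic lists together had 946 CPM against 1877, a ratio of 0.504 (0.470 to 0.540), the opposite direction to the comparison with Agt Slc6a11 cells.

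Cells with more genes of the list were deeper, while the summed level of the telencephalic factors did not rise steadily with the number of list genes. The median depth was 783 molecules in cells with 2 list genes, 869 with 3, 1083.5 with 4 and 1318 with 5 or 6. The summed level of Lhx2, Emx2, Nr2e1 and Dmrta2 was 545 (exact Poisson interval 454 to 649), 664, 631 and 714 CPM (603 to 839) in the same order, with intervals that overlap. Nptx2 had 56.3, 105, 125 and 146 and Dio2 212, 352, 350 and 510 CPM, while Sparc had 593, 486, 411 and 350. The part of depth in these differences was not tested.

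Just outside the rule, the 210 cells with 1 list gene and no Agt list gene had 420 CPM of the 4 telencephalic factors and no molecule of the Irx, En and Pax3 set. The 153 cells tied between the lists had 480 and 48.7, and the 148 cells with the Agt list ahead by 1 gene had 196 and 119. Agt Slc6a11 cells had 71.8 and 169. Just inside, the 265 cells with 2 list genes had 545 and 4.33. Pooled levels of the telencephalic factors just outside the rule thus lay between those of Chst2 Hapln1 and Agt Slc6a11 cells. Whether single cells there were intermediate or a mix of both kinds was not tested. The astroglia markers had 24805 CPM in cells with 1 list gene and no Agt list gene and 43790 in cells with 2 list genes.

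The cells lay near each other without the genes of the rule. The other genes vary with the rule genes in the same cells, so this is a description and no independent support. All kept cells, the 1810 neuroblast-like cells included, could be neighbours. When the 18 genes were left out, 55.2% of the 30 nearest neighbours of a Chst2 Hapln1 cell in expression space were themselves Chst2 Hapln1 cells, which make up 11.4% of kept cells, 22.8% were Agt Slc6a11 cells and 15.9% were cells of no group. With the rule applied to cells thinned to 400 molecules the share was 32.7%, of 7.10% of cells that then met the rule. In 621 of 912 cells (68.1%) at least 50% of the neighbours were of the group, and 24 cells had none. Agt Slc6a11 cells had 4.24% such neighbours and neuroblast-like cells 0.319%. The share was 47.0% in cells with 2 list genes, 54.3% with 3, 58.8% with 4 and 67.0% with 5 or 6, and 28.8% in tied cells. It was 13.3% in the 5 oligodendrocyte-marked cells.

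**Figure D5:**
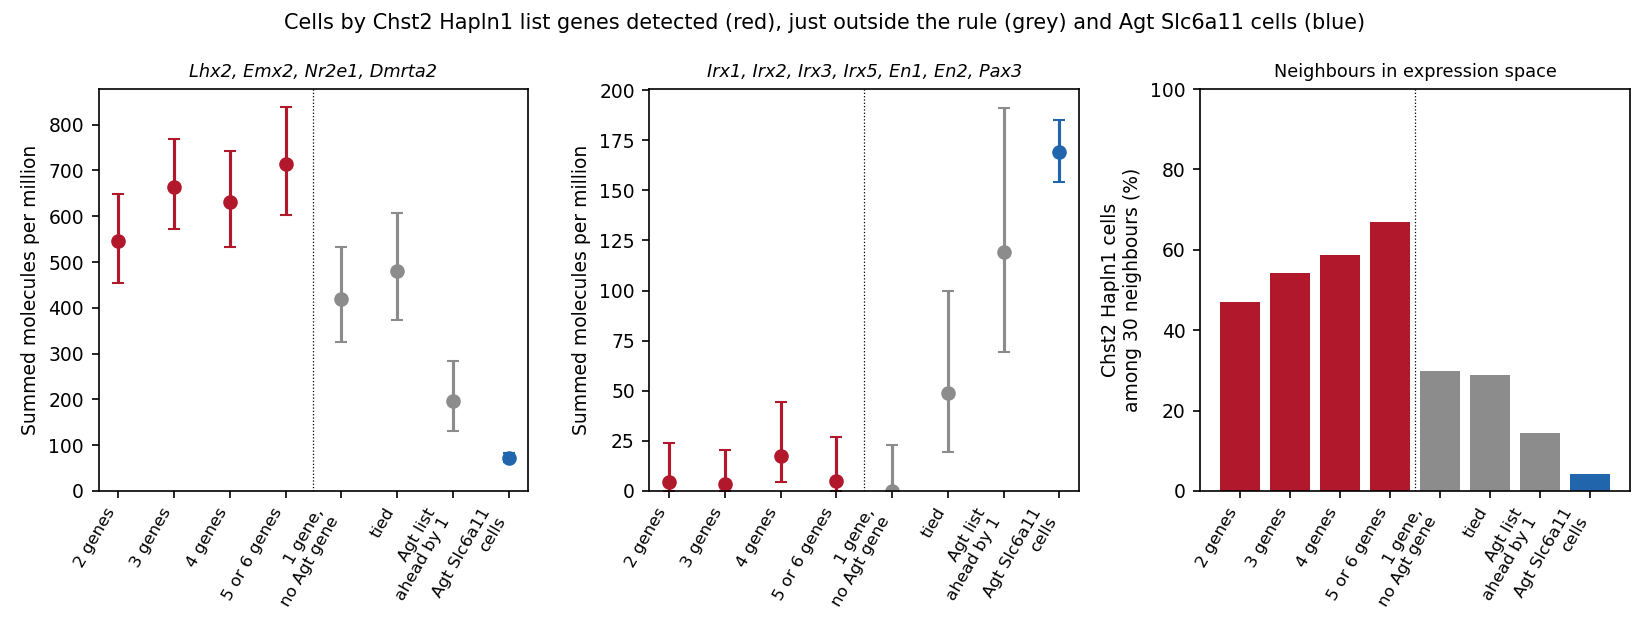
Chst2 Hapln1 cells by number of list genes detected (red), cells just outside the rule (grey) and Agt Slc6a11 cells (blue). The first 2 panels give the summed level of 4 telencephalic factors and of 7 midbrain and hindbrain factors in CPM with exact Poisson 95% intervals, and the last gives the mean percentage of Chst2 Hapln1 cells among 30 nearest neighbours, from 67.0% with 5 or 6 list genes to 4.24% in Agt Slc6a11 cells.

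In the tail library, 19 of 1964 kept cells met the rule (0.967%, 0.583 to 1.51), and only 1 of them held 3 or more astroglia markers.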

How the data were processed

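Per the file headers, the authors made the molecule counts with version 1.10.1 of the BD Rhapsody pipeline on GRCm38 with GENCODE vM19, while their methods name a later version of it and, as the submitters' processing notes also do, UMI-tools 1.0.1, STAR 2.7.1a and featureCounts 1.6.4 on mm10. The deposited counts corrected by the pipeline (RSEC) were used, and uncorrected counts as an alternative. Kept cells had a gene number above 200 and below 4000 and less than 40% of molecules from mitochondrial genes. The members, gene lists and alternatives were chosen with earlier results of these data known. Molecules were summed per group and scaled to 1000000. Ratios have exact conditional binomial, shares Clopper-Pearson and levels Poisson 95% intervals, all for counting error only. Genes were called at a ratio of 2 or more or 0.5 or less with at least 50 molecules. Named were the genes of the rule and lists, the 15 highest and 10 lowest against Agt Slc6a11 cells and the 10 highest against all other cells, ranked by the interval bound nearer 1, and the genes that took these places without the oligodendrocyte-marked cells. Neighbours came from 2000 variable genes and 20 principal components (scanpy 1.11.5) on log values. Doublets were kept, and Scrublet was an alternative. A few genes are not reported here and were left out of the lists and passed over in the ranks. With 1 library per group no test was made. Positions are from GENCODE vM21. The scripts were tested on simulated data.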

Additional observations from a re-analysis of the deposited data

How the results depend on the processing

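No paired analysis was possible because each tissue was 1 library with no replicate number, so no library could be left out either. Of 87 values that answer a comparison, 59 stayed within the counting interval or within 1.5 times a count, 28 moved and none reversed. The share of members was 8.10% with 3 or more list genes, 8.25% with a margin of 2 genes, 7.10% with the rule applied to thinned cells and 15% without cells holding 2 or more markers of neuroblasts, oligodendrocytes or microglia. Against all other cells, 189 genes were higher and 558 lower without those cells, 565 were higher with median-ratio scaling (which sets to 0 a median log2 ratio of -0.24, and of 0.06 against Agt Slc6a11 cells), 156 and 746 at a minimum of 200 molecules, and 621 and 3000 at 10. Against Agt Slc6a11 cells these minimums gave 104 higher and 122 lower, and 790 and 1010. The telencephalic ratio ran from 2.73 (under 20% mitochondrial molecules) through 3.40 (margin of 2), 3.41 (3 or more list genes), 3.58 (mean over cells), 3.64 (without 76 Scrublet doublets, 10 of them members) and 4.11 (thinned rule) to 4.75 (without cells with genes of other classes). The midbrain and hindbrain ratio was 0.285 under the thinned rule. The member share of neighbours was 59.3%, 45.3%, 43.3%, 32.7% and 61.3% with under 20% mitochondrial molecules, 3 or more list genes, the margin of 2, the thinned rule and other classes left out. The cause of these shifts was not tested.

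Of 2195 recomputed ratios of named genes, 26 reversed, all for the 7 oligodendrocyte and myelin genes against Agt Slc6a11 cells, under settings that drop the 5 marked cells or most of them. Leaving out those 5 cells was a setting chosen after seeing the data, and no Agt Slc6a11 cell was left out. The ratios were then 0.143 for Mal, 0.349 for Cldn11, 0.241 for Ugt8a and 0 for Ermn, Mag, Tspan2 and Fa2h. With 3 or more list genes they were 0.158 for Mal, 0.289 for Cldn11 and 0 for Ermn, Mag, Tspan2, Ugt8a and Fa2h. Under the thinned rule they were 0.819 for Ugt8a and 0 for Mal, Cldn11, Mag, Tspan2 and Fa2h. Without cells with genes of other classes they were 0.452 for Mal and 0 for Ermn, Mag, Tspan2, Ugt8a and Fa2h, and Cldn11 gave no value because Agt Slc6a11 cells then held none. At a median of 941.5 molecules per cell, a factor such as Emx2 is seen in few single cells, so levels hold for pooled cells only.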

Other observations

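Set against all other kept brain cells, where 3.33% of genes were at least 2-fold higher and 18.2% at least 2-fold lower, 5 of 25 astrocyte identity genes (Aldoc, Slc1a2, Glul, Clu and Mfge8) were at least 2-fold higher in Chst2 Hapln1 cells and none was lower. In the thyroid hormone list 2 of 8 genes with enough molecules were higher, namely Dio2 and Crym, and Hr and Ttr were lower. Of 23 G protein-coupled receptor genes with enough molecules, S1pr1, Cnr1, Fzd2 and Fzd9 were higher and Adra2a and P2ry1 lower. In the matrix list Hapln3, Cspg5 and Chst1 were higher and Vcan, Tnc and Sparc lower. The 12 immediate early and dissociation genes with enough molecules held 11 that were lower. Thbs4 and Prom1, genes of neural stem cells and ependyma, were higher among 18 stem cell genes, with Sox1, Nes, Vim and Ccnd2 lower. These other cells include the Agt Slc6a11 cells, so the values are not independent of the comparison with them.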
